A study of Homo sapiens with 25 samples.

Results

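The regions described here carried the Polycomb mark H3K27me3 in human embryonic stem cells, had no peak of it in definitive endoderm, and carried it again in pharyngeal foregut endoderm. They were chosen by that pattern. The peaks of all 7 H3K27me3 lists were pooled and merged into 208733 regions on chromosomes 1 to 22 and X, of which 17927 were at least 500 bp wide. A region was a member when it overlapped a peak in both stem cell lists and in both pharyngeal foregut lists and in neither definitive endoderm list, and 353 regions met this rule, 1.97% of the 17927. The H3K27me3 pattern over these 3 stages is therefore a description and was not tested.

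Undifferentiated H1 cells, a long-established human embryonic stem cell line, were the starting point (hESC). They were differentiated first to definitive endoderm (hDE), then to anterior foregut (hAFE), and last to pharyngeal foregut endoderm (hPFE), the layer that forms the thymus and parathyroid. All groups derive from this 1 line, and the sources used here do not give the factors or days of the differentiation. Chromatin immunoprecipitation with sequencing gave 2 libraries per stage for H3K27ac, 2 for H3K27me3 except 1 in hAFE, and 2 for H3K4me2 in hESC and hDE against 1 in hAFE and hPFE. The question was which regions lose the silencing mark in endoderm and regain it later, and what the other marks did there.

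H3K27me3 is laid down by Polycomb repressive complex 2 and covers the genes of developmental regulators that are held silent. H3K27ac, on the same lysine, marks active promoters and enhancers, and the 2 modifications exclude each other on 1 histone tail. H3K4me2 is found at open or active promoters and enhancers, and its presence together with H3K27me3 is known as a bivalent state, in which many developmental genes of stem cells are found. Definitive endoderm forms through the primitive streak, where Nodal, WNT and FGF signals and the transcription factors EOMES, MIXL1 and GSC act for a short time before foregut genes take over.

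The promoter windows of 7 genes at members are shown because they carry or border the regions the results turn on; these genes were picked for display after their values were seen. Each window runs from 250 bases before to 50 bases after a gene start, is given 5′ to 3′ on the gene's strand, and comes from RefSeq (GRCh38.p14). Capitals mark the CpG dinucleotides. The first 6 belong to genes of the streak and endoderm that had H3K27ac in hDE. ABCG4, a sterol transporter gene, had H3K4me2 and no H3K27ac peak there.
EOMES, chr3:27722274-27722573, minus strand: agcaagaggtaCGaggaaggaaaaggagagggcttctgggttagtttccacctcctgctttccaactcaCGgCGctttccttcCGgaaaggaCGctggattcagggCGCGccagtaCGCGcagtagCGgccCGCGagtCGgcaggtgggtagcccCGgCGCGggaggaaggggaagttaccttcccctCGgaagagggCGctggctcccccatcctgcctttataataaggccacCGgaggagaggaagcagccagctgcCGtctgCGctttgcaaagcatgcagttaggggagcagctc
GSC, chr14:94770064-94770363, minus strand: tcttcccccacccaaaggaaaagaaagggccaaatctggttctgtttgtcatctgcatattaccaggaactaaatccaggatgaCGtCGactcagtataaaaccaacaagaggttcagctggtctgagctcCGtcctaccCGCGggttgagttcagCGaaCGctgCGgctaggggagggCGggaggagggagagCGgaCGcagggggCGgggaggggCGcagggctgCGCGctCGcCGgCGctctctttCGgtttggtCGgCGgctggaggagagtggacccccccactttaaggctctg
NODAL, chr10:70441632-70441931, minus strand: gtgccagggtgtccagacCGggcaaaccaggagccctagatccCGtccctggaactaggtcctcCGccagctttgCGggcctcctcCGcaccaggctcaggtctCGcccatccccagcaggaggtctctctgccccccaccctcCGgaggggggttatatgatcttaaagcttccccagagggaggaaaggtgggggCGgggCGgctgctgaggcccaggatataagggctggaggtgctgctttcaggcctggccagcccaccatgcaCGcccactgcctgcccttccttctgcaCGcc
WNT3, chr17:46818643-46818942, minus strand: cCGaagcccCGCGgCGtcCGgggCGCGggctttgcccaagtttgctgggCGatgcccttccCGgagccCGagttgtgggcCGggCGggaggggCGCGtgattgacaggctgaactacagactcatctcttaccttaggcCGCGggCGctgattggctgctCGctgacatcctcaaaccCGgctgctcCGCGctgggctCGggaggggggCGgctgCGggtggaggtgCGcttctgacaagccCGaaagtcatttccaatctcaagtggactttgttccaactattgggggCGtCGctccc
GATA6, chr18:22169339-22169638, plus strand: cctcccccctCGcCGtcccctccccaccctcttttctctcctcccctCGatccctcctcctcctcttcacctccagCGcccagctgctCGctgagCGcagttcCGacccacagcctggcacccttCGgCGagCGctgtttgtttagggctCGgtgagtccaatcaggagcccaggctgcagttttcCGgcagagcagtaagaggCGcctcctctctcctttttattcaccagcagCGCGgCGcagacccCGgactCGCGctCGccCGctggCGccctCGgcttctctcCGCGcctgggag
MIXL1, chr1:226223414-226223713, plus strand: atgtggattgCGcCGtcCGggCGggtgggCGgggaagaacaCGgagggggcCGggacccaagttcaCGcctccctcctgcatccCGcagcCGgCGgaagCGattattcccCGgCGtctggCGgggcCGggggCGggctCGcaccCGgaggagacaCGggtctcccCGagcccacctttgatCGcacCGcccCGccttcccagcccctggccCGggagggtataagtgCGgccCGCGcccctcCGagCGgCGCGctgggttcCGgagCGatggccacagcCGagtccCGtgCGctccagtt
ABCG4, chr11:119148802-119149101, plus strand: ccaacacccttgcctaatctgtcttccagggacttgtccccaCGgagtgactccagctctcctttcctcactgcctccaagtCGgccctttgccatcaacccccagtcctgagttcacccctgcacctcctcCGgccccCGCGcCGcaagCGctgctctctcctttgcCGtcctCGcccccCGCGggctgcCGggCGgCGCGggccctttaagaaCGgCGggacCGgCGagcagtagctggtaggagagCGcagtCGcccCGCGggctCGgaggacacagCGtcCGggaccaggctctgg
The NODAL, WNT3 and ABCG4 windows shown lay wholly inside a member, and 101 of the 300 bases of the GSC window did. ABCG4 has another listed start, whose window is not shown and lay 195 bp outside the member. The EOMES window lay 422 bp, the GATA6 window 73 bp and the MIXL1 window 264 bp outside the nearest member. The EOMES window lay inside a region that counted as kept, with an H3K27me3 peak in both lists of hESC, hDE and hPFE. CpG counts were 21 for EOMES, 21 for GSC, 11 for NODAL, 28 for WNT3, 25 for GATA6, 37 for MIXL1 and 26 for ABCG4. Over the 72 windows of 61 genes that overlapped a member the median count was 24 CpG, against 26 in windows overlapping regions that kept H3K27me3 at all 3 stages, 22 in those that lost it and did not regain it, and 21 in all 22132 windows.

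A search for 4 short motifs was made on both strands of these windows, also chosen after values were seen, and member windows held them about as seldom as all windows. The GATA letters AGATAA were in 6.94% of the 72 member windows against 7.88% of all windows, and the T-box letters AGGTGTGA in 1.39% against 0.931%. The FOXH1 letters AATCCACA were in 0 of the 72 against 0.637%, and the TCF/LEF letters ATCAAAG in 0 against 1.99%. The MIXL1 window, which lies outside its member and is not among the 72, held both the FOXH1 and the TCF/LEF letters. A match says nothing of whether a factor binds.

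The stage markers were checked by H3K27ac at their gene ends, and each stage had it at most markers of its own name. It was at all 6 hESC markers in both hESC lists, at all 8 hDE markers in both hDE lists, at all 5 hAFE markers in both hAFE lists, and at 6 and 5 of 9 hPFE markers in the hPFE lists. The markers did not all separate the stages: 4 of the 6 hESC markers also had it in both hDE lists, and all 5 hAFE markers in both hPFE lists and 3 of them in both hDE lists. The 8 hDE markers had it in neither hESC list, at 2 and 1 in the hAFE lists and at 3 in each hPFE list. The hDE markers include EOMES, GSC and GATA6, which are genes at members. Neural markers (3 genes) and liver and pancreas markers (3 genes) had it in none of the 8 lists, and of 4 mesoderm markers 2 and 3 had it in hESC, 1 in each hDE list, 0 in hAFE, and 2 and 1 in hPFE. The H3K27me3 lists held 23457 to 76441 peaks, and those of hDE held 28200 and 65995. For hESC, the libraries of H3K27ac and of H3K27me3 came from an earlier deposit and were re-analysed, so stage and batch cannot be told apart for these marks in hESC. Replicate 1 of H3K27me3 in hESC, hDE and hPFE carries the word millipore in its file name, and the sources used here do not say what it means.

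Loss of H3K27me3 in endoderm was seldom followed by its return. Of 3131 regions with a peak in both hESC lists and no hDE list, 353 (11.3%) had one in both hPFE lists, 332 (10.6%) in 1 of them and 2446 (78.1%) in none. Members were 503 to 11690 bp wide with a median of 1259 bp. The median was 2529 bp for the 4116 regions that kept the mark. It was 904.5 bp for the 2446 that lost it and had no peak in either hPFE list. Members also ranked lower within each list than kept regions. Their strongest peaks stood at a median percentile of 57.7 and 81.8 in the 2 hESC lists and 84.6 and 86.5 in the 2 hPFE lists, against 86.1, 93.9, 94.9 and 95.0 for kept regions, by the authors' −log10 p within each list. Lost regions stood near members in the hESC lists, at 55.7 and 83.3. Kept regions are wider and can overlap more peaks, and the part of width in these ranks was not tested.

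The number of members depended on which libraries had to agree. Leaving out 1 H3K27me3 library at a time gave 367 to 685 regions. The count was 533 without hESC replicate 1, 685 without hDE replicate 2 and 570 without hPFE replicate 1, each more than 1.5 times the 353. A further 429 regions had the same pattern except for a peak in 1 hDE library, which was replicate 2, the longer list, in 333 of them and replicate 1 in 96. Lists that hold more peaks leave fewer regions without one, and read depths were not used here, so the mark may be present below the threshold where no peak is listed.

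The width limit fell within a continuous range. Without it, 395 regions had the pattern, and 42 of these were narrower than 500 bp. The 5 members just above the limit were 503, 503, 507, 509 and 525 bp wide. They included one at SLC66A3. The 5 regions just below it were 489, 490, 491, 492 and 496 bp wide. Fold enrichment over input in the 2 hESC and the 2 hPFE lists was between 2.30 and 6.29 in the regions just above and between 2.31 and 6.64 in those just below.

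More members had an H3K27ac peak in hDE than at any other stage. An H3K27ac peak lay on 3.40 and 3.40% of members in the 2 hESC lists, 35.4 and 39.1% in hDE, 4.25 and 2.27% in hAFE, and 3.40 and 5.95% in hPFE. In both hAFE lists at once it lay on 8 members (2.27%), against 1.92% of all regions. In both hDE lists at once it lay on 111 members, 31.4% (exact 95% binomial interval 26.6 to 36.6%), against 7.26% of all 17927 regions. The H3K27ac lists differ in length, from 24871 peaks in hAFE replicate 2 to 111256 in hPFE replicate 2, and those of hDE held 101186 and 111076, so the stages are not on equal terms. With lists cut to equal length within each mark, the share in both hDE lists was 19.4% of 279 members, against 3.07% of all 15857 regions, 0.686% of kept and 8.16% of lost regions. At full length it was 3.47% of kept regions and 19.2% of regions that lost H3K27me3 and did not regain it. In hPFE the order of members and lost regions was the opposite: in the 2 lists 3.40 and 5.95% of members had H3K27ac, against 18.4 and 15.0% of the regions that did not regain H3K27me3. The rule itself sets H3K27me3 at these stages, and this mark excludes H3K27ac on 1 histone tail. Members were required to have H3K27me3 in hESC and hPFE and none in hDE, while kept regions have it in hDE. The higher H3K27ac share of members in hDE, their distance from kept regions there and this order in hPFE are therefore not independent of how the regions were chosen. These shares are descriptions of peak calls and were not tested, and the intervals cover counting error only.

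**Figure D1:**
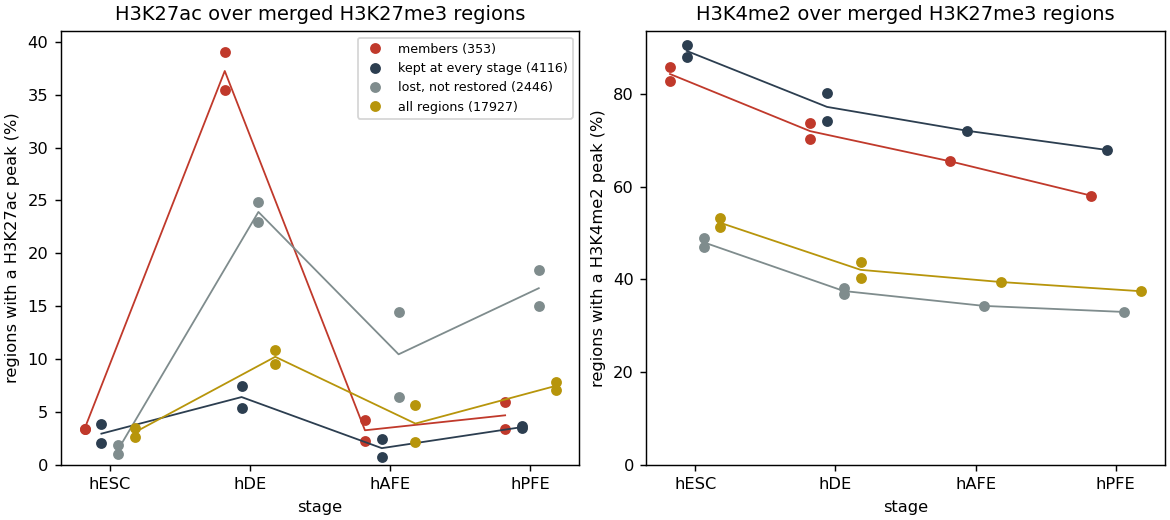
The share of regions (percent, vertical axis) with an H3K27ac peak (left) or an H3K4me2 peak (right) in each library, by stage; points are libraries, lines join stage means, and colours are members, kept regions, regions lost and not restored, and all regions. H3K27ac on members peaked at 35.4 and 39.1% in hDE, while H3K4me2 on members ran from 82.7 and 85.8% in hESC to 58.1% in hPFE.

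Width bears on these shares, since a wider region can overlap more peaks. Among regions of 871 to 1942 bp, the middle range of member widths, taken after values were seen, H3K27ac was in both hDE lists on 26.0% of members, 1.10% of kept regions and 21.9% of lost regions. Within a 500 bp window at the middle of each region the shares were 19.5% of members, 0.632% of kept regions and 12.5% of lost regions. In both settings members stood above kept regions, and their distance from lost regions, in percentage points, was smaller than at full width. Among regions of 1000 bp or more that distance was larger, at 43.3% of members against 26.5% of lost regions and 3.73% of kept regions.

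H3K4me2 was common on members in every list. It was on 82.7 and 85.8% of members in the hESC lists, 70.3 and 73.7% in the hDE lists, 65.4% in the hAFE list and 58.1% in the hPFE list. Against these, 39.4% of all regions had it in hAFE and 37.4% in hPFE. Both hESC lists had it on 80.7% of members, against 48.8% of all regions. In both hDE lists it lay on 235 members, 66.6% (61.4 to 71.5%), against 37.3% of all regions, 71.8% of kept regions and 32.2% of lost regions. The order of members and kept regions turned with width: in the range of 871 to 1942 bp the share was 71.2% of members and 56.6% of kept regions, and in the 500 bp middle window 44.2% and 34.0%. Lost regions were below members in both, at 33.7 and 24.2%.

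In hAFE, the stage between loss and return, H3K27me3 had a peak on many members. The single hAFE list had a peak on 212 members, 60.1% (54.7 to 65.2%), against 47.7% of all regions, 94.4% of kept regions and 5.36% of lost regions. The members' share depended on the hPFE libraries that chose them: it was 48.4% without hPFE replicate 1 and 47.5% without hPFE replicate 2. These values are close to the 47.7% of all regions, but the 2 are not on equal terms. The library left out was also left out of the merging, and the share of all regions was not computed for those settings. With 1 hAFE library there is no spread between replicates to set this against. The peaks on those 212 members stood at a median percentile of 59.4 within the hAFE list, against 86.2 for the kept regions with a peak there.

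Genes of the primitive streak led the members. Of the fixed list of 15 primitive streak and mesendoderm genes, 8 had a member within 1000 bp of a gene end: EOMES, GSC, MIXL1, NODAL, WNT3, FGF4, FGF8 and FGF17. Among these 8, only GSC, NODAL and WNT3 had a member under all 17 settings that could change membership. Joining peaks up to 500 bp apart dropped EOMES, FGF4, FGF8 and FGF17. EOMES and FGF4 also had a kept region at a gene end. The background was 0.911% of 19974 protein-coding genes, or 182 genes. Only genes with a merged H3K27me3 region at an end could have a member. These were 4199 of the 19974 and 13 of the 15, so 0.911% is a low background for this list. The list was chosen with earlier results of these data known, so its count is not independent evidence. Of the other 7 genes, TBXT, SP5 and EVX1 had kept regions, MESP1 a kept and a mixed one, LHX1 a region that missed the rule through 1 hDE library, and WNT8A and TBX6 no region at all.

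EOMES, a T-box transcription factor required for endoderm formation, had the highest-ranking member, a 9580 bp region at chr3:27712273-27721852 (hg38) inside the gene, 471 bp from its start. H3K27me3 fold enrichment over input was 12.9 and 20.2 in hESC, 11.05 in hAFE, and 8.43 and 9.48 in hPFE, with no peak in hDE; fold enrichment is the authors' value for the strongest peak of that list, and values of different lists are not comparable. H3K27ac had peaks in the 2 hDE lists alone, at 19.0 and 21.3. A 12129 bp region that counted as kept covered the gene start and ran upstream from it. In hDE it held only 1 peak of 211 bp in replicate 1 and 1 of 285 bp in replicate 2, at different places. Beyond the other end of the member, 471 bp from it, lay a further hDE peak of 199 bp in replicate 1. With hDE peaks on both sides, EOMES was no member when peaks up to 500 bp apart were joined, or when no hDE peak was allowed within 5 kb.

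GSC, a homeobox gene of the organizer, had 2 members, one of 5578 bp over its start and one of 7065 bp upstream. The H3K27me3 fold enrichment of the 5578 bp region was 12.3 and 11.9 in hESC, 7.89 in hAFE, and 8.00 and 12.9 in hPFE. Its H3K27ac fold enrichment was 16.3 and 22.4 in the hDE lists, and no other H3K27ac list had a peak there. The nearest hDE H3K27me3 peak was 12489 bp from this region and 18297 bp from the other, so the absence at GSC was wide.

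NODAL, the TGF-beta family ligand that drives mesendoderm, had a 4850 bp member over its start at chr10:70438548-70443397. Its H3K27me3 fold enrichment was 11.2 and 17.4 in hESC, 10.5 in hAFE, and 4.45 and 10.4 in hPFE. H3K27ac fold enrichment was 9.67 and 15.6 in the hDE lists and there was no peak of it in any other list. MIXL1, a homeobox gene of the streak, had a 1343 bp member with weaker H3K27me3, at 6.57 and 4.29 in hESC and 2.67 and 3.02 in hPFE, and H3K27ac at 9.09 and 10.7 in hDE alone. MIXL1 dropped out under both stricter peak thresholds, with lists of equal length and with an overlap of 200 bp.

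**Figure D2:**
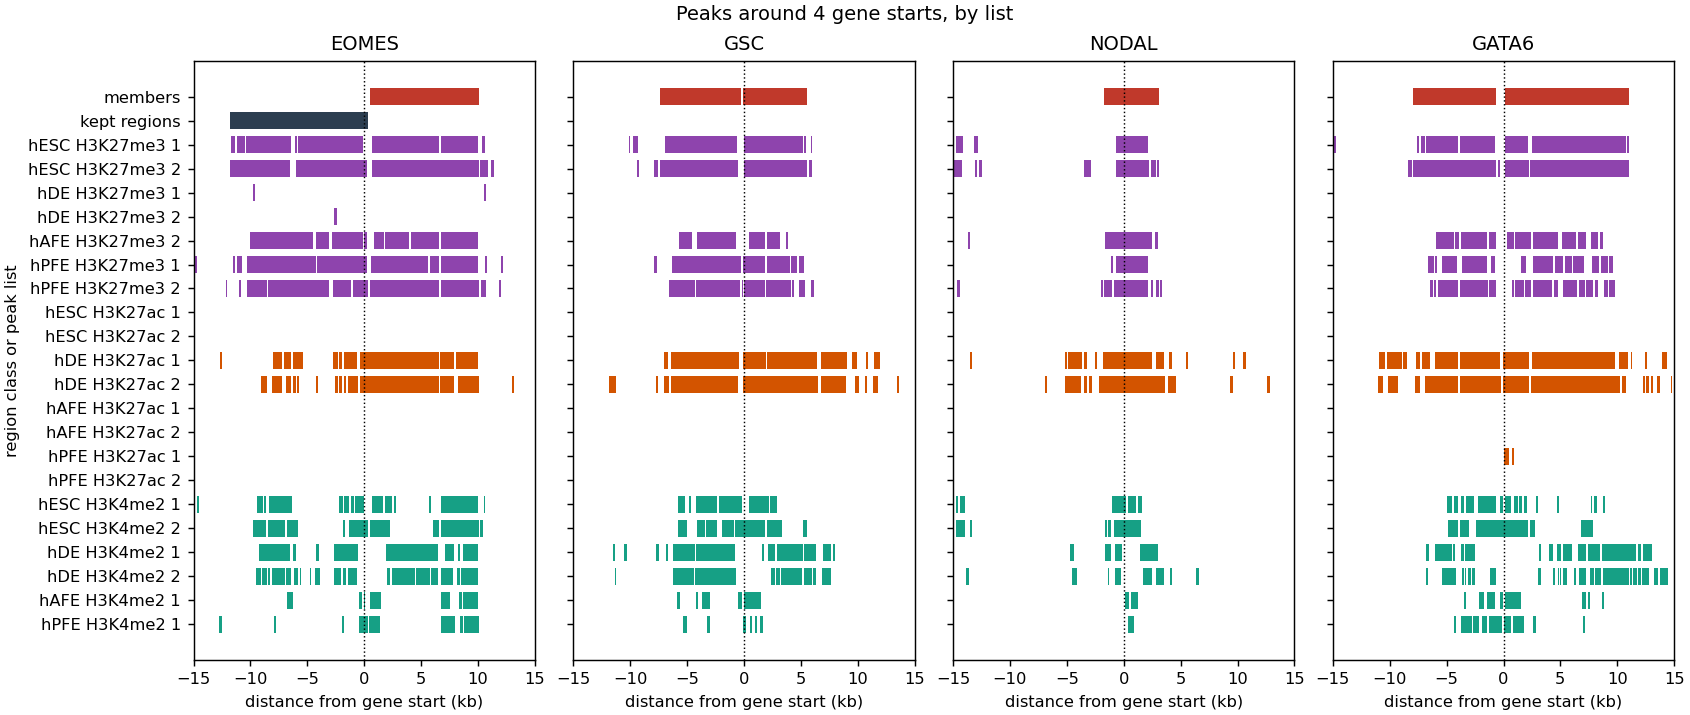
Peaks of each list around the starts of EOMES, GSC, NODAL and GATA6, drawn by distance from the gene start (kb, positive values downstream), with members and kept regions in the top 2 tracks. H3K27me3 peaks lay across the members in hESC, hAFE and hPFE, H3K27ac peaks lay across them in the 2 hDE lists, and the only hDE H3K27me3 peaks in view are 3 narrow ones near EOMES.

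The signalling ligands fell into 2 kinds. WNT3, a WNT ligand, had members of 2265 and 4059 bp, with H3K27me3 at 12.1 and 14.3 in hESC and 6.13 and 7.04 in hPFE on the narrower one. Its hDE H3K27ac was low there, at 3.06 and 2.26, and 5.83 and 6.13 on the wider region, which holds the start. FGF8 and FGF17, FGF ligands of the streak, had hDE H3K27ac at 11.04 and 17.3 for FGF8 and 12.2 and 17.3 for the wider FGF17 region, which also lies at DMTN, an actin-bundling protein gene. The members at FGF4 and FGF19 had no H3K27ac peak in either hDE list, and the FGF4 region had no H3K4me2 there. H3K27me3 was not absent in hDE from these gene ends as a whole. FGF4 also had a kept region, and FGF19 a region with H3K27me3 in both lists of hDE and hPFE and in neither of hESC. In the FGF list 4 of 33 genes had a member, and in the list of WNT ligands and antagonists 3 of 37, namely WNT3, SFRP1 and RSPO4. SFRP1, a secreted WNT antagonist, had hDE H3K27ac at 10.1 and 14.7. The member at RSPO4, a WNT agonist, had none, and a kept region also lay at that gene end.

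Endoderm transcription factor genes were fewer. Of 18 definitive endoderm genes, 2 had a member, GATA6 and OTX2, and 6 had a kept region, among them SOX17, GATA4 and GATA3. A kept region needs an overlap of only 1 bp in each list. Regions that lost H3K27me3 and did not regain it lay at CER1, PRDM1, SHISA2, FOXA2 and GATA3, the last 2 of which also had a kept region. CXCR4 and KIT had a region that lost it in hDE and had a peak in only 1 hPFE list. GATA6 had 2 members, 10933 and 7287 bp wide, on either side of its start, with H3K27me3 at 17.6 and 26.9 and at 15.8 and 23.2 in hESC. In hPFE the values were 6.86 and 5.20 for the wider and 6.12 and 5.34 for the narrower region. Its hDE H3K27ac was 17.5 and 18.4 on the wider region, and the nearest hDE H3K27me3 peak lay 35782 bp away. The wider region also had an H3K27ac peak in hPFE replicate 1, at 4.72, and none in replicate 2. OTX2, a homeobox gene of anterior endoderm and of stem cells, differed in having H3K27ac at 7.75 and 7.12 in hESC beside H3K27me3.

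The mesoderm list of 22 had 2 genes with a member. One was TCF15, a gene of paraxial mesoderm, whose member had no H3K27ac in hDE and whose gene end also had a kept region. The TGF-beta, Nodal and BMP list had NODAL alone of 30 genes. No member lay at a gene of the pluripotency (15 genes), pharyngeal foregut (23), liver, pancreas and intestine (14), neural (25), HOX (39), Polycomb and demethylase (32), channel (39) or housekeeping (24) lists. For lists this short a count of 0 is near the background of 0.911% of genes. That background includes genes with no merged region, whereas all 39 HOX and all 25 neural genes had one at an end, against 4199 of all 19974 genes. A kept region lay at 13 of the 23 pharyngeal genes, 23 of the 25 neural genes and 35 of the 39 HOX genes, against 2130 of all 19974 protein-coding genes.

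Other genes among the highest-ranking members were PCDH10, a protocadherin, and LZTS1, a leucine zipper protein. Their hDE H3K27ac was 4.31 and 6.36 for PCDH10 and 6.003 and 7.44 for LZTS1, lower within those lists than at EOMES, GSC, NODAL and GATA6. The widest member, 11690 bp at chr20:22567420-22579109, lay 1889 bp from FOXA2, a forkhead factor of endoderm and foregut. It had H3K27me3 at 11.6 and 16.1 in hESC and at 3.00 and 3.10 in hPFE, where the peaks covered 336 and 444 bp of it. H3K27ac was present there in hDE at 17.5 and 20.3, in hAFE at 11.2 and 5.76, and in hPFE at 11.5 and 4.26, so its return of H3K27me3 rests on short peaks beside H3K27ac.

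**Figure D3:**
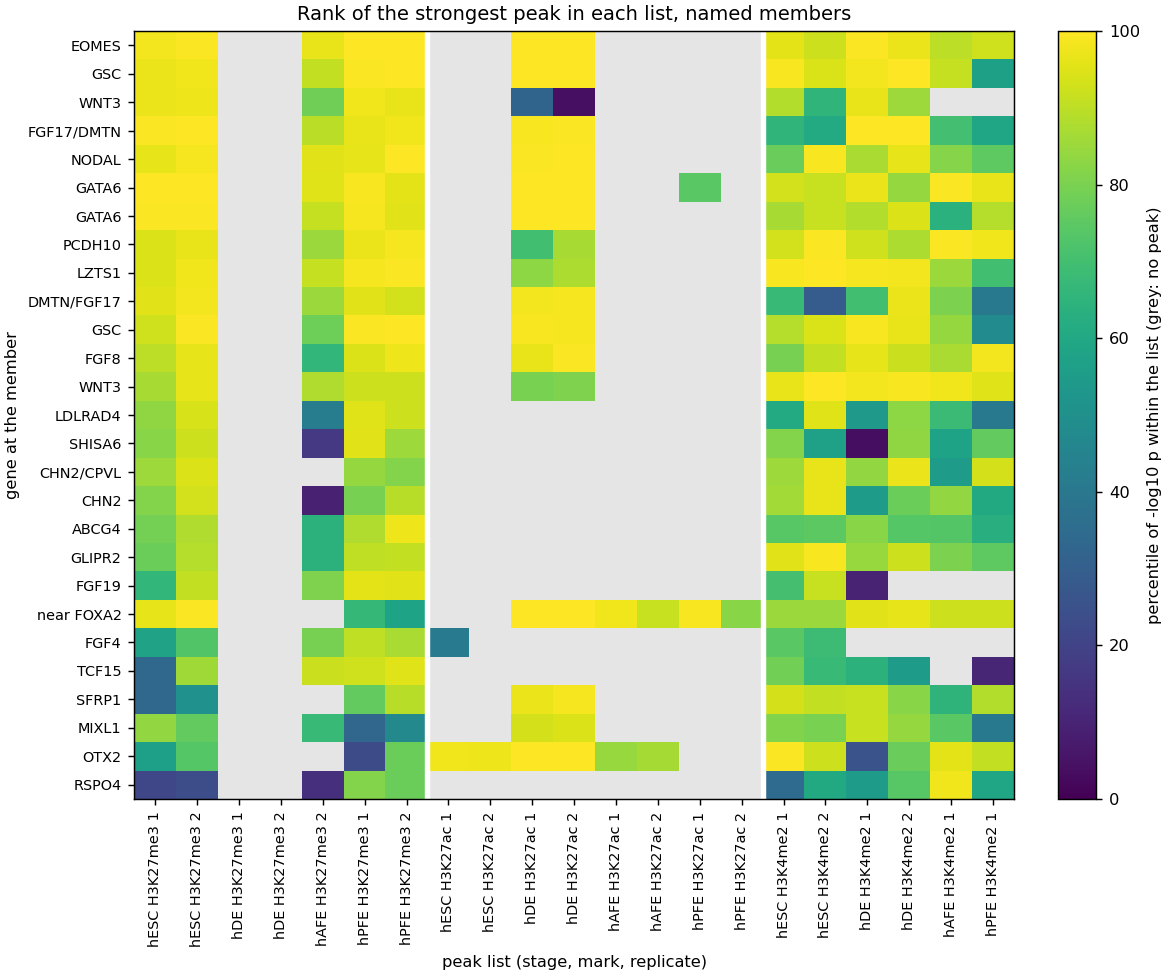
Percentile of the strongest peak by −log10 p within each of the 21 lists (colour, 0 to 100, grey where the list has no peak) for named members, from the highest-ranking member at the top. Among the named members with H3K27ac in both hDE lists, those at OTX2 and near FOXA2 also have it in both hAFE lists.

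A group of 5 members had H3K27ac in both hPFE lists together with the H3K27me3 that made them members, 1.42% against 3.96% of all regions. Those named here were named after their values were seen. They lay at TGFB1, which encodes a growth factor, at CYP26A1, whose enzyme degrades retinoic acid, at CDC42EP1, and near FOXA2. All 5 also had H3K27ac in both hDE lists. In hESC another 5 members had H3K27ac in both lists, near or at PLAAT5, CHST2, JPH3, SP8 and OTX2, 1.42% against 1.53% of all regions.

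The members divided by their hDE H3K27ac. The 111 with H3K27ac in both hDE lists had a median width of 1990 bp, and 86 of them (77.5%) lay at a protein-coding gene end. The 201 with H3K27ac in neither had a median width of 1003 bp and 80 (39.8%) at a gene end, and the remaining 41 had it in 1 list. The nearest hDE H3K27me3 peak was a median of 10749 bp away for the 111 and 1028 bp for the 201. A kept region lay within 5 kb of 24.3% of the 111 and 42.3% of the 201. The 2 groups also differed in H3K27me3 rank, with medians of 74.8 and 89.9 in hESC and 91.0 and 92.0 in hPFE for the 111, against 48.9, 77.2, 81.6 and 80.8 for the 201. The part of width and rank in these differences was not tested, and the split was made after values were seen.

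**Figure D4:**
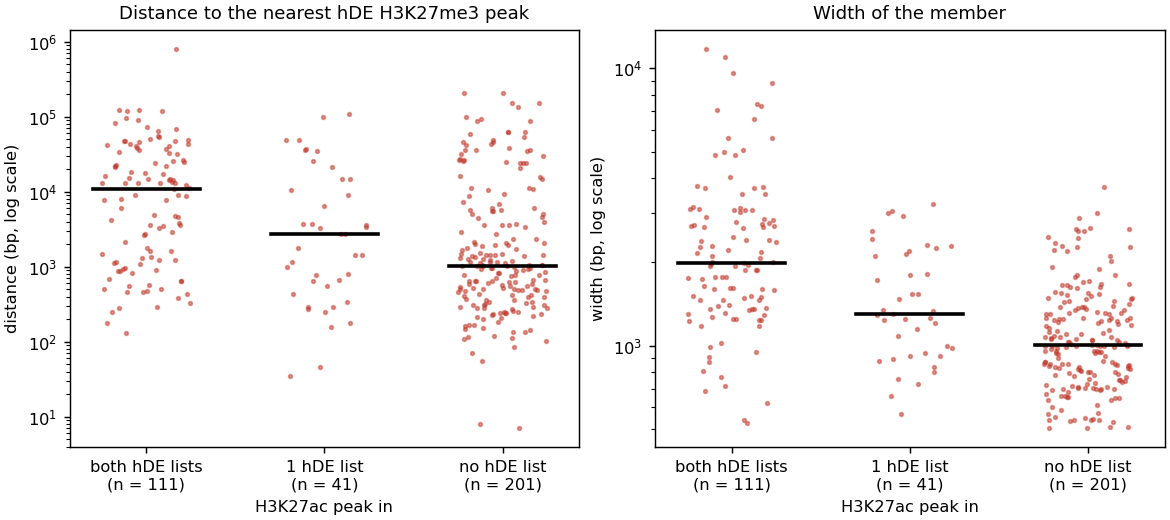
Distance in bp from each member to the nearest hDE H3K27me3 peak (left) and width of each member in bp (right), both on log axes, by whether H3K27ac had a peak in both hDE lists, 1 or none; points are members and bars are medians. The median distance was 10749, 2759 and 1028 bp, and the median width 1990, 1301 and 1003 bp.

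Members without H3K27ac in hDE differed in H3K4me2. Of the 201, 97 had H3K4me2 in both hDE lists, 29 in 1 and 75 in none. H3K4me2 in both lists without H3K27ac was a common state: it was on 27.5% of members against 27% of all regions, a share near the background. These 97 had a median width of 1232 bp, 62.9% were at a gene end and 62.9% had hAFE H3K27me3. Their highest-ranking genes were LDLRAD4, SHISA6, CHN2 with CPVL, ABCG4 and GLIPR2, which include a regulator of TGF-beta signalling (LDLRAD4) and a receptor-associated protein of neurons (SHISA6). At LDLRAD4 the H3K27me3 fold enrichment was 5.68 and 9.19 in hESC, 2.98 in hAFE, and 4.88 and 5.03 in hPFE, and H3K4me2 in hDE was 3.78 and 5.80. The 75 members with neither mark in either hDE list had a median width of 855 bp and lay a median of 613 bp from an hDE H3K27me3 peak. Of these, 58.7% were within 5 kb of a kept region and 14.7% at a gene end.

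By position, 189 members, 53.5% (48.2 to 58.8%), lay within 1000 bp of a protein-coding gene end, against 32% of all regions, 60.5% of kept regions and 23.1% of lost regions. Another 64 lay inside a protein-coding gene away from its end and 100 outside protein-coding genes. Joining members up to 10000 bp apart left 326 loci, and 51 members shared a locus with another, as the pairs at GSC, GATA6 and WNT3 did, so members are not independent of each other. They lay on all 22 autosomes and X, from 5 on chromosome 21 to 28 on chromosome 2.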

How the data were processed

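H3K27ac, H3K27me3 and H3K4me2 were profiled in H1 cells at 4 stages. The 25 samples comprise 21 with a peak list, all used, and 4 inputs, not analysed here except as the authors' controls. Each list is the authors' peak call of 1 library with the stage's input as control, at a p-value threshold of 0.01, per the deposited file names; the lowest −log10 p was 2.00. Per the submitters' processing notes the build is hg38. The sources used here do not give the aligner or peak caller. The deposited fold enrichment is a ratio of signal over control, while the −log10 values of p and q were also deposited by the authors; all describe or rank peaks within 1 list and were not compared between lists.

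Peaks overlapping by 1 bp or touching were merged (Python 3.11.15, pandas 2.3.3, numpy 2.4.6), and an overlap of 1 bp counted. Regions were called kept when both lists of hESC, hDE and hPFE had a peak, and lost when hESC alone had. Gene ends were every listed start for 15812 of 19974 protein-coding genes and both annotated ends for the other 4162 (RefSeq, GRCh38.p14). A first run used 1 listed start per gene; this was changed after its values were seen. Binomial intervals are exact (Clopper-Pearson, 95%, scipy 1.17.1). No p-value was computed, since the lists give calls and no counts. Region building was tested on simulated data.

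The members, gene lists and comparisons were chosen with earlier results of these data known. Named genes were the first 12 members at a gene end ranked by their lowest percentile in the 4 hESC and hPFE H3K27me3 lists, the first 8 of those with H3K27ac in both hDE lists, the first 6 with H3K4me2 in both and H3K27ac in neither, the 5 widest, every listed gene with a member, and the 5 on each side of the width limit. Whether replicates came from separate cultures is not stated in the labels. The alternatives are given in the closing section. Results for some genes at members are not reported here.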

Additional observations from a re-analysis of the deposited data

How the results depend on the processing

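Requiring a width of 1000 bp left 231 members, and requiring no hDE H3K27me3 peak within 5 kb left 131; the count stayed within 1.5 times 353 under the other planned settings that kept all libraries. Leaving out 1 library at a time gave 367 to 685 members, hAFE H3K27me3 on 47.5 to 68.0% of them, hDE H3K27ac on 22.5 to 39.1%, hDE H3K4me2 on 53.1 to 73.7% and a gene end at 43.9 to 53.1%. With lists cut to equal length these shares were 76.0, 19.4, 77.8 and 64.2%, in the same order, and with a width of 1000 bp they were 65.8, 43.3, 77.5 and 61.5%. With no hDE peak within 5 kb, hDE H3K27ac was on 48.1%, H3K4me2 on 79.4% and a gene end at 63.4%. The 500 bp middle window gave 19.5% for H3K27ac and 44.2% for H3K4me2, and joining peaks up to 500 bp apart gave 75.8% for H3K4me2. A gene end was at 61.7% with a −log10 q of 2 or more, 62.0% with a −log10 p of 5 or more, 42.8% with a gene window of 500 bp and 62.9% with one of 2500 bp. The next 3 settings were chosen after seeing the data. The H3K27me3 libraries numbered 1 alone gave 784 members, with shares of 65.4, 20.7, 59.1 and 45.4%. The libraries numbered 2 alone gave 1051 members, with 48.5, 17.7, 44.2 and 37.1%. One listed start per gene put a gene end at 47.0% of members (166). Of 24 named genes, 9 had a member at their end under all 17 settings that could change membership: GSC, NODAL, WNT3, GATA6, PCDH10, LZTS1, LDLRAD4, CHN2 and CPVL; the cause of the other changes was not tested. No paired analysis was possible because the results are overlaps of peak calls and come from no test. Depth behind each list is unknown and limits every absence.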
